A study of Mus musculus with 8 samples.

Results

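Transcripts of 9 oligodendrocyte and myelin genes (Mbp, Mag, Mog, Mobp, Cnp, Opalin, Ugt8a, Cldn11 and Ermn) were followed across 8 arrays of the mouse suprachiasmatic nucleus (SCN), the paired hypothalamic nucleus that holds the central circadian clock. A probe was used where the array annotation gave it exactly 1 of these gene symbols, and each of the 9 genes had 1 such probe. They are 9 of the 19938 genes with a probe of this kind, and all 9 lay above the level filter that left 12452 genes for testing. The rule that picks the probes uses symbols and the annotation and no difference between groups.

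All mice were of the C57BL/6J strain and were either wild type or lacked Gpr176, an orphan G protein-coupled receptor. Every group had first been held on 12 h of light and 12 h of darkness per day for over 2 weeks and was then moved to constant darkness. Tissue was taken at circadian time 6 (CT6, subjective day) or circadian time 18 (CT18, subjective night). The nucleus was cut out by laser microdissection and tissue of 10 mice was pooled for each array, so each of the 4 groups rests on 2 separate pools, called A and B. Age, sex and the construction of the Gpr176 allele were not given in the sources used here. Laser-cut tissue holds every cell type inside the outline, and in such bulk samples fewer cells of a type and less RNA per cell cannot be told apart.

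Oligodendrocytes wrap axons in many layers of membrane that insulate them and speed conduction. Mature cells make a small set of abundant structural proteins that hold the membrane layers together, surface proteins that face the axon or the outside, and enzymes that build the galactolipids of the sheath. These transcripts are abundant in white matter such as the optic chiasm, which lies directly under the SCN, and in the brain they come largely from oligodendrocytes. Cldn11 is an exception in that it is also made by barrier cells of the arachnoid, a layer of the meninges.

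Values are log2 levels after quantile normalization of the 8 arrays, so a difference of 1 is a doubling. Each p-value of a gene comes from the limma fit and was adjusted by Benjamini and Hochberg's procedure across the 12452 genes, a gene is called at an adjusted p under 0.05, and ± marks the standard error of the fit. With 2 pools per group, each p-value sets a difference against the spread between pools. That spread is 1 variance per gene, shared by the 4 groups and moderated toward that of all genes, so it is not the spread of any single group. The deposited medians of the arrays lay between 7.34 and 7.39. Gpr176, the targeted gene, differed by -1.30 ± 0.0491 between knockout and wild type over both times (limma adjusted p = 3.37e-06), with the 4 knockout arrays at 8.02 to 8.56 and the 4 wild-type arrays at 9.31 to 9.87. A list of 12 genes of SCN neurons averaged 10.8 to 10.9 on the CT6 arrays and 10.4 to 10.5 on the CT18 arrays. Of these 12 genes, 2 were called higher and 6 lower at CT18 over both genotypes. Their mean therefore follows time and is not a measure of SCN content alone. Of the Schwann cell genes, which mark peripheral myelin, 4 of 4 with a usable probe (Pmp2, Ncmap, Egr2 and Dhh) lay below the filter level of 6.82.

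The mean level of the 9 myelin genes varied more between the pools of wild type at CT18 than between the group means, and less in the other groups. For pools A and B it was 9.71 and 9.85 (wild type, CT6), 9.79 and 9.40 (wild type, CT18), 9.78 and 9.60 (knockout, CT6) and 9.42 and 9.51 (knockout, CT18). Wild type at CT18 thus held both the second highest pool and the lowest. The range of a gene over the 8 arrays had a median of 0.590 among the 9 genes, against 0.240 among all genes tested. Ranges ran from 0.159 for Mbp to 1.04 for Opalin. The wild-type CT6 pool B was the highest array for 6 of the 9 genes, and the wild-type CT18 pool A was the highest for the others, which were Cnp, Cldn11 and Ermn. The lowest array was the wild-type CT18 pool B for 5 genes, the knockout CT18 pool A for Cnp, Opalin and Cldn11, and the knockout CT6 pool B for Mbp.

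**Figure D1:**
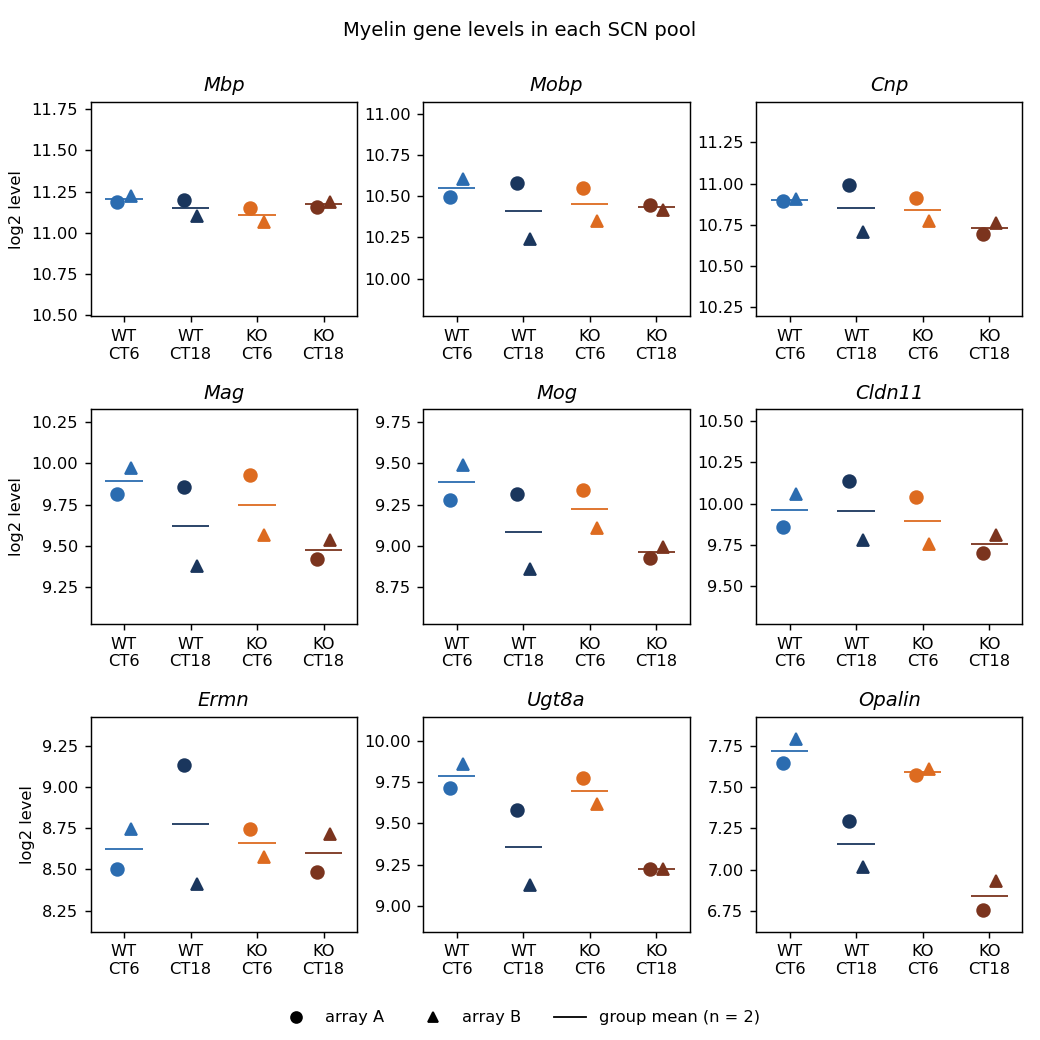
Log2 level (vertical axis, a span of equal height in each panel) of the 9 myelin genes in each of the 8 SCN pools, with circles for pool A, triangles for pool B and a line at the mean of the 2 pools of each group. Opalin and Ugt8a are the panels in which all 4 CT18 arrays lie below all 4 CT6 arrays, and in most other panels the 2 wild-type CT18 pools lie as far apart as the groups do.

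Mbp encodes myelin basic protein, which glues the cytoplasmic faces of compact myelin together. Wild-type pools read 11.19 and 11.22 at CT6 and 11.20 and 11.10 at CT18, and knockout pools 11.15 and 11.06 at CT6 and 11.16 and 11.19 at CT18. These values were nearly flat, with CT6 and CT18 arrays overlapping. Mobp, another small basic protein of compact myelin, measured 10.50 and 10.61 (wild type, CT6), 10.58 and 10.24 (wild type, CT18), 10.55 and 10.35 (knockout, CT6) and 10.45 and 10.41 (knockout, CT18). Its lowest array was the wild-type CT18 pool B and the times overlapped. Cldn11 encodes the tight-junction protein that seals the radial component of central myelin. It measured 9.86 and 10.06 (wild type, CT6), 10.14 and 9.78 (wild type, CT18), 10.04 and 9.75 (knockout, CT6) and 9.70 and 9.81 (knockout, CT18). High and low arrays of Cldn11 occurred at both times.

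Cnp encodes the nucleotide phosphodiesterase of non-compact myelin, which keeps cytoplasmic channels in the sheath open. Its level was 10.90 and 10.91 (wild type, CT6), 10.99 and 10.71 (wild type, CT18), 10.91 and 10.77 (knockout, CT6) and 10.70 and 10.76 (knockout, CT18). The times overlapped through the wild-type CT18 pool A, which was the highest of the 8 arrays. Ermn encodes ermin, an actin-binding protein of the late-stage oligodendrocyte cytoskeleton. It measured 8.50 and 8.75 (wild type, CT6), 9.13 and 8.41 (wild type, CT18), 8.75 and 8.58 (knockout, CT6) and 8.49 and 8.72 (knockout, CT18). The 2 wild-type CT18 pools were the highest and the lowest of all 8 arrays for Ermn, so the groups overlapped fully.

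Mag encodes the adhesion molecule of the myelin membrane that faces the axon. Its level was 9.81 and 9.97 (wild type, CT6), 9.86 and 9.38 (wild type, CT18), 9.93 and 9.57 (knockout, CT6) and 9.42 and 9.54 (knockout, CT18). Apart from the wild-type CT18 pool A, the CT18 arrays of Mag lay below its CT6 arrays. Mog encodes the glycoprotein on the outermost face of the sheath. It measured 9.28 and 9.49 (wild type, CT6), 9.31 and 8.86 (wild type, CT18), 9.34 and 9.11 (knockout, CT6) and 8.93 and 8.99 (knockout, CT18). The pattern of Mog was that of Mag, with the same pool A joining the CT6 arrays.

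Opalin, a transmembrane sialoglycoprotein of central myelin found in mammals (probe 10467529), and Ugt8a, the galactosyltransferase that makes galactocerebroside, the major galactolipid of the sheath (probe 10501963), were the members whose CT18 arrays all lay below their CT6 arrays. Opalin measured 7.65 and 7.79 (wild type, CT6), 7.30 and 7.01 (wild type, CT18), 7.58 and 7.61 (knockout, CT6) and 6.76 and 6.93 (knockout, CT18). The gap between the lowest CT6 array and the highest CT18 array was formed by the knockout CT6 pool A and the wild-type CT18 pool A. The knockout CT18 pool A of Opalin lay just under the filter level of 6.82, so Opalin stood near the floor of the tested range there. Ugt8a measured 9.72 and 9.86 (wild type, CT6), 9.58 and 9.13 (wild type, CT18), 9.77 and 9.62 (knockout, CT6) and 9.22 and 9.22 (knockout, CT18). Its closest arrays across the times were the knockout CT6 pool B and the wild-type CT18 pool A.

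The stretches just upstream of these 2 genes are shown because they are the members whose groups separated by time. Both come from RefSeq on assembly GRCm38.p6, are read 5′ to 3′ on the gene's strand, and end at the last base before the annotated gene. Capitals mark the SOX core ACAANG, the short sequence bound by SOX factors such as SOX10.
Opalin, chr19:41077114-41077363, minus strand: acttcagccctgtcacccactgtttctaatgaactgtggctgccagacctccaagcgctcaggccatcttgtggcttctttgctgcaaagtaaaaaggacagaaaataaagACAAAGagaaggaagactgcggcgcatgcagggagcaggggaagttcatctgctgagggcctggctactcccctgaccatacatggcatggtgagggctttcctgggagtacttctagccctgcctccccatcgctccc
Ugt8a, chr3:125938683-125938902, minus strand: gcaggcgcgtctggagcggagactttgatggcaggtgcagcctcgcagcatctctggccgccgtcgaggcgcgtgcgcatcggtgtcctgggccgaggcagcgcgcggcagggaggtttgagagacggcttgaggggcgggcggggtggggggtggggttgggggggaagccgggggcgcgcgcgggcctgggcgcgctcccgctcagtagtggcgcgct
The Opalin window of 250 bases had 54.4% G and C and the full Ugt8a window 76.8%, with a median of 52.4% over all windows. For Ugt8a the printed stretch is 220 bases, since the annotated gene covers the rest. RefSeq windows on the chromosome of Mbp were left out, so windows of 8 of the 9 members were kept (10 windows). They were searched on both strands for the E-box CACGTG, the bHLH E-box CAGCTG, the SOX core ACAANG, the D-box TTATGTAA and the CRE TGACGTCA. The SOX core was found in 6 of the 8 members and the other motifs in 0, and 1 copy lay in the Opalin window. Over all 32851 windows of this length, 36.3% held the SOX core, 6.02% CACGTG, 13.0% CAGCTG, 0.819% TTATGTAA and 1.55% TGACGTCA. These shares include windows on the chromosome of Mbp. All of these are matches of letters in a short window and describe the sequence alone.

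The 2 pools of a group differed in the same direction for nearly all members. In wild type at CT6, pool B exceeded pool A for 9 of 9 members, by a mean of 0.139 (A minus B -0.139), while A exceeded B for 46.3% of all genes tested. In wild type at CT18, pool A exceeded pool B for 9 of 9 members by a mean of 0.385, against 55.1% of all genes. The largest of these gaps was 0.719 for Ermn and the smallest 0.0926 for Mbp. In the knockout at CT6, pool A was higher for 8 of 9 members, all but Opalin, by a mean of 0.178, against 34.7% of all genes. In the knockout at CT18, pool B was higher for 7 of 9 members, all but Mobp and Ugt8a, with a mean A minus B of -0.0832, and A was higher for 34.9% of all genes, so this count lies near that of all genes. That last count was 9 of 9 with the values as deposited or with median centring, and the other 3 counts did not move with the scaling.

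Other genes of the oligodendrocyte lineage were read for the same pool differences. The list of other myelin and mature oligodendrocyte genes had 32 of its 36 genes on the array by the same probe rule, and its mean A minus B was -0.138, 0.206, 0.0952 and -0.0660 in the order wild type CT6, wild type CT18, knockout CT6, knockout CT18. It carried the members' sign in each of the 4 groups. The 9 lineage transcription factors, among them Olig1, Olig2, Sox10 and Myrf, gave 0.0261, 0.0419, 0.0120 and -0.0317, and the 13 precursor genes gave -0.0395, 0.0981, -0.00122 and -0.0313. In the widest group, wild type at CT18, the members' mean gap of 0.385 therefore stood beside 0.206 for other mature genes, 0.0981 for precursor genes and 0.0419 for lineage factors. Myelin lipid enzymes (12 genes) gave -0.0539, 0.138, 0.0287 and -0.0661.

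Genes of the leptomeninges, the membranes that cover the ventral surface of the brain beside the SCN, also differed between the pools, by more than the members in 3 of the 4 groups. The 12 leptomeningeal genes differed by a mean A minus B of -0.406, 0.667, 0.493 and -0.0396 in the same order, with the members' sign in 4 of 4 groups. Summed on the linear scale, the list read 2087 to 2833 in wild type at CT6, 2029 to 3396 in wild type at CT18, 2224 to 3289 in the knockout at CT6 and 2025 to 2074 in the knockout at CT18, a ratio of 1.68 between the highest and the lowest array. Of the 12 genes, 9 were above the level filter, and Lum, Ogn and Slc22a6 were below it. The widest of the 9 above the filter was Fmod, which ran from 7.04 to 8.72. Their part in the members' differences between pools was not tested.

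Lists of other cell classes were read in the same way. Mean A minus B was -0.0725, 0.103, 0.0329 and -0.0792 for 12 astrocyte genes, -0.0578, 0.0708, 0.0314 and -0.0338 for endothelial and mural genes, and -0.0143, 0.0728, 0.0281 and -0.0535 for microglial genes, in the order used above. These lists, like the myelin lipid enzymes, carried the members' sign in each of the 4 groups. The shared sign is thus not particular to the leptomeningeal genes. SCN neuron genes gave 0.0234, -0.00895, -0.0867 and -0.0156, and general neuron genes 0.0592, -0.00492, 0.00215 and -0.0437. In wild type at CT18, the group where myelin genes differed most between pools, both neuron lists differed by less than 0.01. The letters A and B were not used as pairs across groups, since A minus B correlated only at -0.222 to 0.257 between groups. These values do not settle whether the letters mark a shared step. The remaining lists, of ependymal cells and tanycytes and of the neighbouring hypothalamus, gave -0.0596, -0.0405, 0.0226 and -0.0472, and 0.00473, -0.0866, 0.0414 and -0.0127. Alas2, the 1 blood gene with a usable probe, gave -0.0965, -0.125, 0.0149 and 0.0998. The 4 Schwann cell genes, all below the filter, gave 0.0109, 0.0153, -0.0465 and -0.119. In the knockout at CT18 the astrocyte mean of -0.0792 was close to the members' -0.0832.

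**Figure D2:**
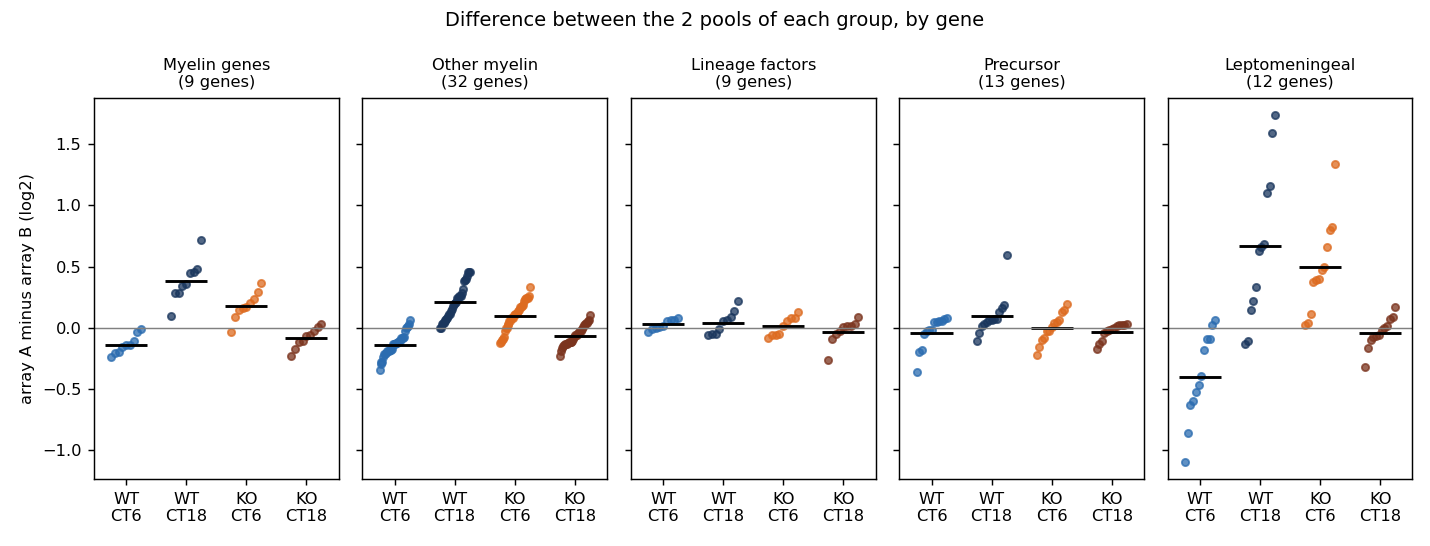
Difference between pool A and pool B (log2, vertical axis) in each of the 4 groups for the 9 myelin genes and 4 gene lists, with a point for each gene and a bar at the mean. The myelin genes lie below 0 in wild type at CT6 (mean -0.139) and above 0 in wild type at CT18 (mean 0.385), and the leptomeningeal genes show the same signs over a wider span (means -0.406 and 0.667).

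Likeness over the 8 arrays was described with Pearson's r and no test, since the arrays share their groups. The member closest to the mean of the other 8 was Mog (r = 0.987), followed by Mag (r = 0.981), Cnp (r = 0.930) and Ugt8a (r = 0.903). Cldn11 (r = 0.847), Mobp (r = 0.824), Opalin (r = 0.721), Ermn (r = 0.557) and Mbp (r = 0.498) were less alike. Outside the set, the 8 genes whose levels were most like the members' mean were Sned1 (r = 0.987), Aspa, Mal, Trf, Bmp2k, S1pr5, Plekhh1 and Tmem63a (r = 0.959). Of these, 5 (Aspa, Mal, Trf, S1pr5 and Plekhh1) were on the list of other myelin and mature oligodendrocyte genes. Once each gene was centred within its group, so that only differences between the pools of a group were left, the 8 nearest genes were Bmp7 (r = 0.999), Pcolce, Cped1, Tax1bp3, Srgn, Slc16a12, Dync1li2 and Ifit3 (r = 0.993), and 0 of these 8 were on that list. Centring leaves 4 independent differences, so high values of r arise easily there.

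Between subjective day and subjective night, Opalin and Ugt8a fell and no member rose. Over both genotypes, Opalin was lower at CT18 by a log2 difference of -0.66 ± 0.0682 (4 against 4 arrays, limma adjusted p = 0.000203), which is 1.58-fold lower, with all 4 CT18 arrays below all 4 CT6 arrays. Ugt8a differed by -0.45 ± 0.0879 (limma adjusted p = 0.00720), 1.37-fold lower, and its arrays did not overlap either. The count was thus 2 of 9 members lower and 0 higher, and 4 members, all lower, had an unadjusted p under 0.05, as did 3793 of the 12452 genes. The background was 16.8% of all genes called in either direction, 6.79% lower and 10% higher, and 8.3% of all genes had all CT18 arrays below all CT6 arrays. The median difference was -0.0816 over the 9 members and 0.0104 over all genes, and 7 of 9 members lay below 0 (45.5% of all genes), in each of the 3 scalings. Without the wild-type CT18 pool A the median was -0.165 with 9 of 9 below 0, and without pool B it was -0.0102 with 5 of 9. Leaving out any other array gave 6 to 9 members below 0, with a median from -0.143 to -0.0465.

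The other 7 members were not called between the times. Mog differed by -0.28 ± 0.0956 (limma adjusted p = 0.0748, 95% interval -0.495 to -0.0664) and Mag by -0.27 ± 0.108 (limma adjusted p = 0.120). Both intervals left out 0 before adjustment for the number of genes. Cnp gave -0.08, Mobp -0.08 and Cldn11 -0.07 on the log2 scale, with adjusted p-values from 0.432 to 0.657 in limma. Ermn gave 0.04, with a 95% interval of -0.261 to 0.346 that leaves room for a change in either direction. Mbp gave 0.00 with a narrow interval of -0.0875 to 0.0964 for the average of the genotypes. Within wild type Mbp gave -0.06 (interval -0.185 to 0.0748) and within the knockout 0.06 (interval -0.0659 to 0.194). Mag and Mog passed when the wild-type CT18 pool A was left out (Mag -0.39, limma adjusted p = 0.0226; Mog -0.39, limma adjusted p = 0.0102), which raised the count to 4 of 9. Without the wild-type CT18 pool B they shrank to -0.15 (limma adjusted p = 0.313) and -0.17 (limma adjusted p = 0.177), and without the knockout CT6 pool A Mag shrank to -0.18 (limma adjusted p = 0.315). Mog also passed with a level filter at the 60th percentile (limma adjusted p = 0.0377) and with an intensity trend in the variance (limma adjusted p = 0.0469). Without the knockout CT6 pool B, Mag also passed (-0.36, limma adjusted p = 0.0472).

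**Figure D3:**
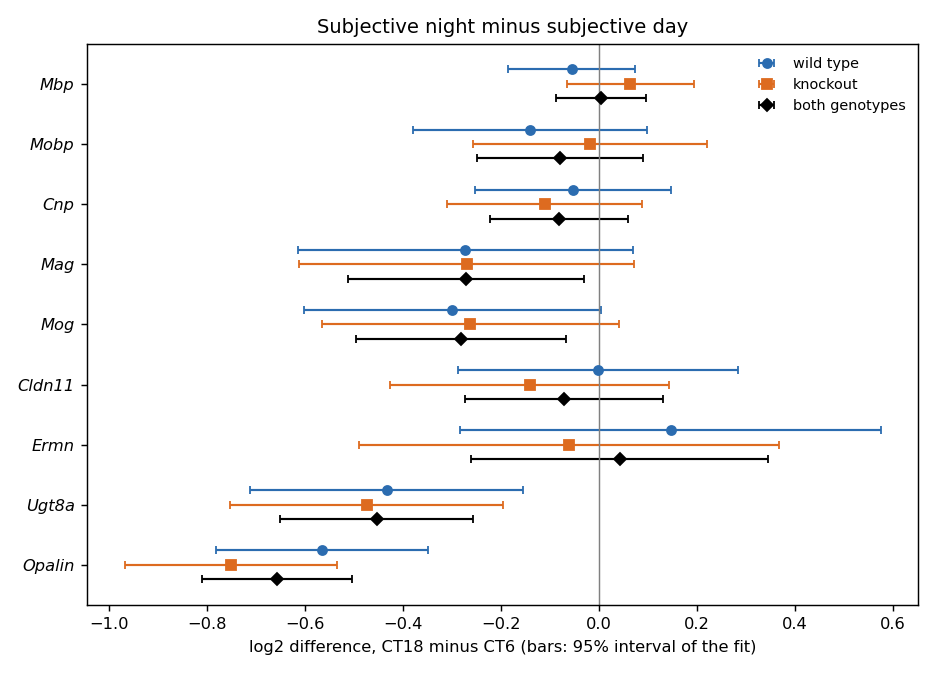
Log2 difference of CT18 minus CT6 (horizontal axis) for each myelin gene in wild type, in the knockout and over both genotypes, with bars for the 95% interval of the limma fit. Opalin (-0.66 over both genotypes) and Ugt8a (-0.45) stand to the left of 0, and Mbp (0.00) has the narrowest interval.

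Opalin and Ugt8a also had the 2 lowest day-night differences of the set within each genotype. In wild type, Opalin was lower at CT18 by -0.56 ± 0.0964 (limma adjusted p = 0.00818) and was the 1 member of 9 called, with 6.94% of all genes called in either direction, 2.54% lower and 4.4% higher. That call was lost without the wild-type CT6 pool B (-0.49, limma adjusted p = 0.0718). Ugt8a measured -0.43 ± 0.124 in wild type (limma adjusted p = 0.0715), and it passed without the wild-type CT18 pool A (-0.66, limma adjusted p = 0.00595) but was -0.21 without pool B (limma adjusted p = 0.238). In the knockout, Opalin was lower at CT18 by -0.75 ± 0.0964 (limma adjusted p = 0.00168), again 1 of 9 called, with 7.16% of all genes called, 3.53% lower and 3.63% higher. Ugt8a measured -0.47 ± 0.124 there, close to the threshold (limma adjusted p = 0.0510). It passed when either wild-type CT18 pool was left out, which alters the shared variance and not this difference. It was not called when any other array was left out, and without a knockout pool it lay between -0.55 and -0.39. With the pool letter as a block the knockout value of Ugt8a also passed (limma adjusted p = 0.0497). The members' median was -0.141 in each genotype, against 0.0164 and 0.00908 over all genes in wild type and knockout. Below 0 were 8 of 9 members in wild type (44.3% of all genes), or 7 with the deposited or median-centred values, and 8 of 9 in the knockout (46.8% of all genes). In the knockout this fell to 5 of 9 without the CT6 pool A (median -0.0405), and without the CT6 pool B the median was -0.285. With the mean of the leptomeningeal genes as a covariate, 4 of 9 lay below 0 in the knockout (median 0.00536). Without the knockout CT18 pool A the median was -0.0884. Without the wild-type CT18 pool A the wild-type median was -0.313 with 9 of 9 below 0, and without pool B it was -0.00896 with 5 of 9. Without the wild-type CT6 pool B it was -0.0865.

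Opalin and Ugt8a lay further down at CT18 than the other members did. Set against the mean of the other 8 members on the same array, Ugt8a lay between -0.00569 and 0.0168 on the 4 CT6 arrays and between -0.322 and -0.226 on the 4 CT18 arrays. The arrays of the 2 times did not overlap on this relative scale either, and the mean relative difference of Ugt8a was -0.28. Opalin lay between -2.48 and -2.24 relative to the others at CT6 and between -3.00 and -2.69 at CT18, a mean difference of -0.51. The relative level of Ermn moved the other way by 0.28 and that of Mbp by 0.24, with Cldn11, Mobp and Cnp at 0.15, 0.14 and 0.14 and Mag and Mog at -0.07 and -0.08. Opalin also did not overlap between the times on this scale. Nor did Ermn, Cldn11, Mobp and Cnp, which lay higher at CT18, so the lack of overlap is not particular to Ugt8a. The share of all genes without overlap on such a scale was not computed. Opalin and Ugt8a were singled out because they fell most, so their low relative levels at CT18 follow in part from that choice. The mean that Ermn, Cldn11, Mobp and Cnp were set against includes Opalin and Ugt8a. A relative level shows unequal change among the 9 genes and not which of them changed.

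**Figure D4:**
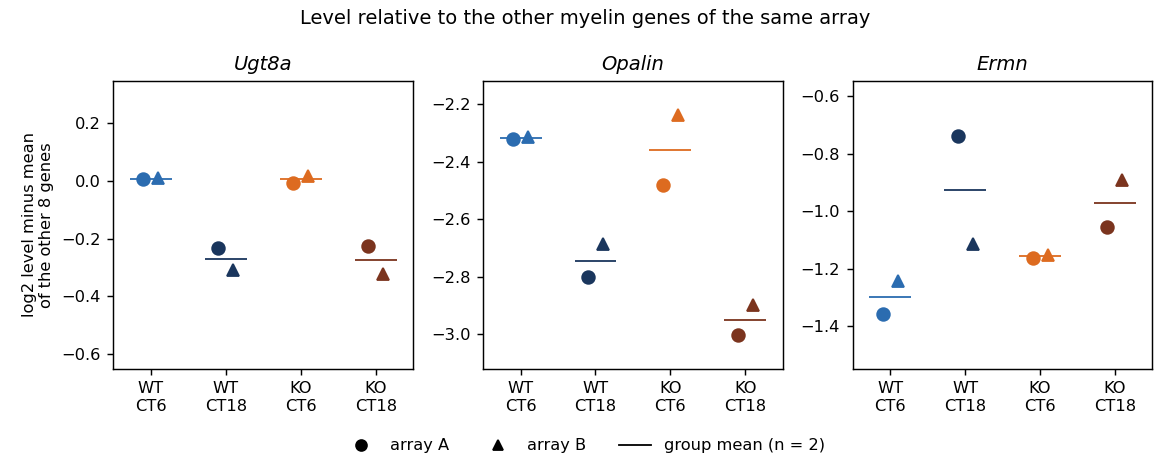
Level of Ugt8a, Opalin and Ermn in each pool relative to the mean of the other 8 myelin genes on the same array (log2, vertical axis), with circles for pool A, triangles for pool B and a line at the group mean. Ugt8a is near 0 on all 4 CT6 arrays and between -0.322 and -0.226 on all 4 CT18 arrays.

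Of the 9 leptomeningeal genes tested, 0 were called between the times in limma, in either genotype or over both. Their median was -0.354 in the knockout, 0.0677 in wild type and -0.143 over both genotypes. With the mean of the leptomeningeal genes as a covariate in the fit, Opalin over both genotypes was -0.61 (limma adjusted p = 0.000287) and Ugt8a was -0.37 (limma adjusted p = 0.00181). With the mean of the other myelin genes as a covariate, Opalin was -0.58 (limma adjusted p = 0.000212) and Ugt8a -0.33 (limma adjusted p = 0.00449). Both genes kept their calls with either covariate. Each covariate was a linear term for a list's mean, which does not fix the tissue content of a pool. The part of tissue content in these differences was not tested. Mog passed with the leptomeningeal covariate (-0.19, limma adjusted p = 0.0233), and Ermn passed as higher at CT18 with the other myelin genes as covariate (0.24, limma adjusted p = 0.0296). Both covariates were chosen after the data had been seen.

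Among the other myelin and mature oligodendrocyte genes, 2 rose and 4 fell of 32 tested between CT6 and CT18 over both genotypes (median -0.0958). Of all genes, 16.8% were called in this comparison, 10% higher and 6.79% lower. Pllp, which encodes plasmolipin, a membrane proteolipid of myelin, fell by 0.41 on the log2 scale (limma adjusted p = 0.000276), and Ppp1r14a, an inhibitor of myosin phosphatase, fell by 0.22 (limma adjusted p = 0.0198). Ndrg1, a cytoplasmic protein of myelinating and other cells, rose by 0.46 (limma adjusted p = 0.000257), and Jam3, a junctional adhesion molecule, rose by 0.26 (limma adjusted p = 0.00423). The arrays of Pllp, Ndrg1 and Jam3 did not overlap between the times, whereas those of Ppp1r14a did. All CT18 arrays lay below all CT6 arrays for 8.3% of all genes, and the share with all of them above was not counted. Within wild type, Pllp (-0.40), Ndrg1 (0.49) and Jam3 (0.31) were called, where 6.94% of all genes were. Within the knockout, Pllp (-0.43) and Ndrg1 (0.43) were called, where 7.16% of all genes were.

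Of the 12 enzymes of myelin lipid synthesis and turnover, the pathway of Ugt8a, 2 fell and 0 rose over both genotypes. They were Elovl7, a fatty acid elongase, at -0.42 (limma adjusted p = 0.00250), and Fa2h, which hydroxylates the fatty acids of galactolipids, at -0.22 (limma adjusted p = 0.0267). Gal3st1, Cers2, Galc and the other members of that list were not called. The median of the list was -0.0327. Of all genes, 16.8% were called in this comparison, 6.79% lower and 10% higher. A count of 2 in 12 lies near the share of all genes called in either direction.

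Between them, the lists of lineage transcription factors and precursor genes held calls in both directions over both genotypes. The background in this comparison of the times was 16.8% of all genes called, 10% higher and 6.79% lower. Among 9 lineage transcription factors, Olig2, which specifies the lineage, was higher at CT18 by 0.27 (limma adjusted p = 0.0136), and 8 of 9 were not called. Of 12 precursor genes tested, Gpr17, a receptor of cells at the onset of differentiation, rose by 0.26 (limma adjusted p = 0.0163) and the sialidase gene Neu4 rose by 0.14 (limma adjusted p = 0.0269), while Lhfpl3 fell by 0.18 (limma adjusted p = 0.0463). Of 9 genes of the axonal node and paranode, Kcna2, a juxtaparanodal potassium channel, rose by 0.32 (limma adjusted p = 0.000943). In other cell classes, 4 of 12 astrocyte genes rose, 3 of 9 endothelial and mural genes fell, and 0 of 9 microglial genes were called.

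No member was called between knockout and wild type. At CT6, 0 of 9 were called (0.00803% of all genes were), 0 had an unadjusted p under 0.05, and adjusted p-values in limma ran from 0.975 to 0.991. At CT18, 0 of 9 were called (0.00803% of all genes), and Opalin, the 1 member with an unadjusted p under 0.05, measured -0.31 ± 0.0964 (limma adjusted p = 0.319, 95% interval -0.528 to -0.0957). Over all genes, 528 had an unadjusted p under 0.05 at CT6 and 1558 at CT18. Over both times 0 of 9 were called (0.0241% of all genes), and Opalin, again the 1 member with an unadjusted p under 0.05, measured -0.22 ± 0.0682 (limma adjusted p = 0.353), where 1496 of all genes had such a p. A share of 1 in 9 is close to that of all genes at CT18 and over both times.

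All 9 members nevertheless had a difference below 0 over both times, with the 3 scalings alike, against 56.1% of all genes. This tilt was not particular to the members. Below 0 were also 11 of 12 precursor genes, 11 of 12 astrocyte genes and 10 of 11 general neuron genes. Other lists did not share it, with 2 of 9 microglial genes, 6 of 12 SCN neuron genes and 0 of 7 genes of the neighbouring hypothalamus below 0. Mag and Mog measured -0.14 each, Cldn11 -0.13, Ugt8a -0.11, Cnp -0.09, Ermn -0.07, Mobp -0.04 and Mbp -0.04. The median was -0.111 over the members and -0.0101 over all genes. This direction depended on single pools, since without the wild-type CT18 pool A it held for 6 of 9 members with a median of -0.0193. Without the knockout CT6 pool B it held for 8 of 9 and the median was -0.0557, and without the wild-type CT18 pool B the median was -0.225. At CT6 alone 8 of 9 members lay below 0 (53.3% of all genes), with a median of -0.0970. Without the knockout CT6 pool B, 5 of 9 did (median -0.000238), and without pool A the median was -0.170. Leaving out the wild-type CT6 pool A or B gave -0.163 or -0.0533. At CT18 alone 7 of 9 did (56.7% of all genes), or 8 with the deposited values and 9 with median centring. The members' median at CT18 was -0.132, and it turned to 0.0945 without the wild-type CT18 pool A and was -0.358 without pool B. It was also above 0, at 0.0405, with the leptomeningeal covariate.

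The day-night difference of the members was compared between genotypes with the interaction term. None of 9 was called, as was 0% of all genes, and the smallest unadjusted p among the members was 0.178 (605 of all genes had an unadjusted p under 0.05). Interaction values were below 0 for 5 of 9 members (55.3% of all genes), or 7 with the deposited or median-centred values. That count was 1 of 9 without the wild-type CT18 pool A or with the leptomeningeal covariate, 2 of 9 without the knockout CT6 pool A and 8 of 9 without the wild-type CT18 pool B, so no direction can be read from it. The interaction of Opalin was -0.19 with a 95% interval of -0.492 to 0.120 and that of Ugt8a -0.04 with an interval of -0.434 to 0.353. The interval of Ugt8a reaches nearly as far below 0 as its day-night difference of -0.45, so 2 pools per group bound a difference between the genotypes only loosely.

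**Figure D5:**
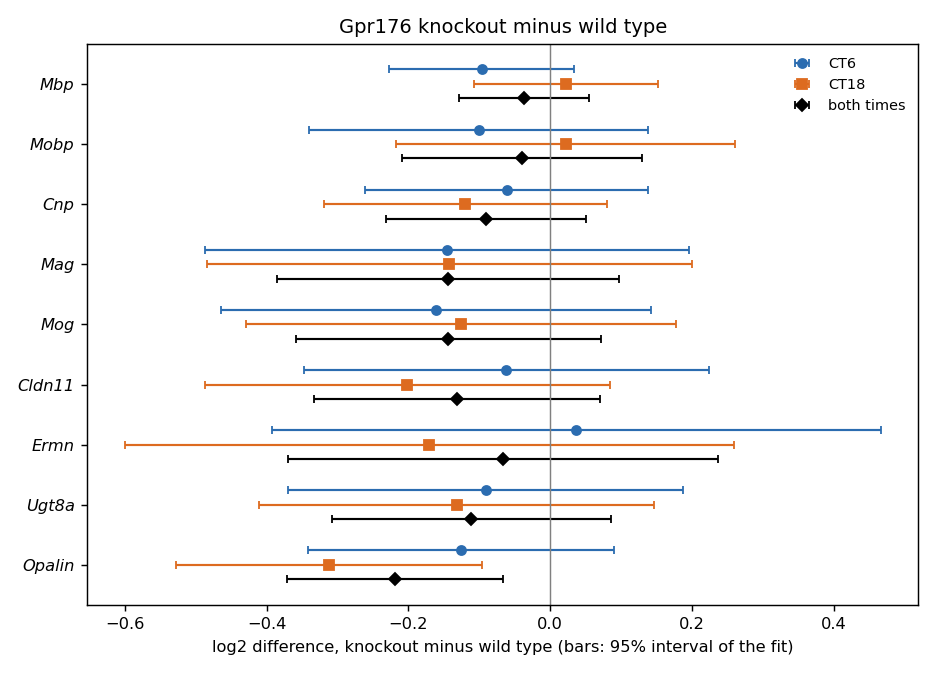
Log2 difference of Gpr176 knockout minus wild type (horizontal axis) for each myelin gene at CT6, at CT18 and over both times, with bars for the 95% interval of the limma fit. The intervals of all genes except Opalin include 0, and Opalin at CT18 (-0.31) did not pass after adjustment over all genes.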

How the data were processed

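RNA of 8 pools of laser-cut SCN was amplified, labelled with biotin and hybridised to whole-transcript arrays, per the labels' protocols. The authors deposited log2 values for 28853 probes on 8 arrays. Background correction, summarisation and normalization are not given in the sources used here, and depth has no meaning for arrays, whose number limits the precision. The deposited columns were quantile normalized with limma 3.58.1 in R 4.3.3, a step that removes any shift common to the whole array. Genes were named from the platform annotation (21789 probes with 1 symbol, 1621 with several, 5443 unnamed here). The brightest probe per gene was kept, and genes under the 40th percentile of mean probe level (6.82) were left out. A mean per group was fitted to all 8 arrays (4 residual degrees of freedom), with 7 contrasts, moderated variances and Benjamini-Hochberg adjustment. The fit was tested on simulated data with independent noise for each gene, which lack the shifts between pools that the members shared. The members and the 15 other gene lists were chosen with earlier results of these data known, so no count over a list is independent support. All members were named, with up to 4 called genes by smallest p from each oligodendrocyte list, the widest tested gene of the leptomeningeal list and the 8 genes most like the members' mean. The pool letters A and B are shared by the groups, but A minus B correlated across groups at -0.222 to 0.257 over genes, so they were not used as pairs.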

Additional observations from a re-analysis of the deposited data

How the results depend on the processing

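The alternatives were the deposited values, median centring, no level filter, a filter at the 60th percentile, the mean of all probes of a gene, a fit of only the groups compared, an intensity trend in the variance, the pool letter as a replicate block, 2 covariates chosen after seeing the data, and each array left out. Of 1100 recomputed member differences, 1076 stayed on their side of the threshold, 1 was lost, 23 were gained and 0 called differences changed sign. Among uncalled differences, 85 changed sign. Some estimates could not move, since each member has 1 probe and a wild-type array left out does not alter a difference within the knockout. Opalin over both genotypes was called in 16 of 16 alternatives that tested it (limma adjusted p 9.07e-06 to 0.00195) and Ugt8a in 17 of 17 (limma adjusted p 0.000484 to 0.0354). Ugt8a was called in 9 of 18 alternatives in the knockout and 5 of 18 in wild type. The count of members called in the knockout between the times was 2, in place of 1, with median centring, the mean of all probes, only the groups compared, the intensity trend, the replicate block and the covariate of other myelin genes, and 1 to 2 with an array left out. In wild type it was 2 with the intensity trend and with the covariate of other myelin genes, 4 with the leptomeningeal covariate, and 0 to 2 with an array left out. Over both genotypes it was 3 with the intensity trend (Mog added) and with either covariate, and 2 to 4 with an array left out. With the stricter filter Opalin was not tested, and over both genotypes Mog and Ugt8a were called. No knockout or interaction call was made for any member in any alternative. Over all genes the calls between the times were 2096, 864 (wild type) and 891 (knockout), with lows of 1385, 311 and 382 when an array was left out, and 3 genes called for genotype over both times became 1 to 7. The replicate block changed no other member call.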
